A study of Mus musculus with 16 samples.

Results

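Fatty acid β-oxidation was followed here through 38 of the 40840 genes of the count table, taken by name from a list of the enzymes and carriers that bring fatty acids into mitochondria and peroxisomes and shorten them there. Of the 38, 25 were set in a mitochondrial class, which includes Eci2, found in peroxisomes too, and Cpt1c, and 10 in a peroxisomal class, while 3 were set in neither: Slc22a5, the carnitine importer of the plasma membrane, Crat, which is found in both organelles, and Acad11, which is peroxisomal in part. RNA came from p53-/-; Myc hepatoblasts, a mouse liver progenitor line that lacks the tumor suppressor p53 and overexpresses the oncogene Myc, grown in high-glucose medium with serum. The cells received sorafenib, a multikinase inhibitor used against hepatocellular carcinoma, at 8.5 µM, or DMSO as the vehicle, and were collected after 48 hours or 7 days. The 4 groups held 4 libraries each, so that 2 contrasts of drug against vehicle, their difference, and the change of vehicle cells with time could be tested. Every library came from the same line, with p53 loss and Myc in the DMSO groups too, and the labels do not say that the replicates were separate cultures, so p-values measure the spread between these samples, which may be technical.

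Long-chain fatty acids enter mitochondria as carnitine esters. CPT1 in the outer membrane makes the ester, the carrier SLC25A20 exchanges it across the inner membrane, and CPT2 returns it to coenzyme A. Each round then runs through an acyl-CoA dehydrogenase chosen by chain length, a hydratase, a hydroxyacyl-CoA dehydrogenase and a thiolase. The trifunctional protein of HADHA and HADHB carries the last 3 steps for long chains, and ECHS1, HADH and ACAA2 take over as the chain shortens. ETFA, ETFB and ETFDH pass the electrons of the dehydrogenases to ubiquinone. Peroxisomes begin with an oxidase in place of the dehydrogenase, handle very long and branched chains and bile acid precursors, and send shortened products out as carnitine esters made by CROT and CRAT. In liver the route supplies energy and ketone bodies during fasting.

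Total counts ran from 16586254 to 30828427 per library. The library of sorafenib for 48 hours, replicate 2, had lowered counts, on the whole, for genes lying after chr14:121147750 (GRCm39) and on chromosomes 15 to 19 and X, with a log2 step of -0.725, and 14.2% of its counts fell there against 20.6 to 21.4% in the others. The region holds 7 of the 38 genes, Cpt1a, Cpt1b, Eci1, Decr2, Acaa2, Ehhadh and Hsd17b4, which are given below with and without that library. Of the markers that would name a hepatoblast or hepatocyte, Dlk1 stood at 32234 ± 841.3 normalized counts in DMSO at 48 hours (SD, n = 4) and Krt18 at 286.3 ± 14.6, whereas Hnf4a had no counts and Alb at most 1. Of the 10 genes of that list, 8 could be tested, of which 1 was higher and 4 lower with sorafenib at 48 hours and 1 and 6 at 7 days. The higher one was Sox9 at both times (log2 fold change 1.64 and 1.37). Krt8, Krt18 and Epcam, among the lower ones at 48 hours, lie in the lowered region of replicate 2. Their values without that library are not given. Of the lower ones at 7 days, Ttr and Afp had at most 4 and 14 counts in any library. Among all genes tested, 26.9% were higher and 27.7% lower at 48 hours, and 28.9% and 27.9% at 7 days. The summed level of the list is mostly Dlk1. It ran from 32094 to 33619 in DMSO and from 10697 to 12451 with sorafenib at 48 hours. At 7 days it ran from 16840 to 18742 and from 5069 to 5277. The 3 stellate and fibroblast markers, most of whose sum is Col1a1, summed to 42160 to 44879 in DMSO and 79052 to 85457 with sorafenib at 48 hours, and to 41501 to 43921 and 52032 to 53862 at 7 days. The other members did not go with Col1a1: Pdgfrb, in the lowered region, was lower at both times (-0.76 and -0.61), and Des was at -0.30, not called, and then lower (-1.14). Ptprc, Lyz2, Cdh5, Plin1, Ckm and Myh6, markers of blood, vessel, fat and muscle cells, had at most 4 counts in any library. Pecam1 and Adipoq reached 9 and 5 counts, and the macrophage marker Cd68 had 47 to 91, with log2 fold changes of -0.03 and -0.06 and no call. Kdr and Acta1, from the vessel and muscle lists, rose at both times, with log2 fold changes of 1.32 and 3.39 at 48 hours and of 2.65 and 3.13 at 7 days. The part of these shifts in the values below was not tested.

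All 38 genes had the 10 counts in total that a test required, as did 20444 genes of the table, and 33 of them averaged 100 normalized counts or more. Normalized counts are raw counts scaled by TMM to a library of the geometric mean size of the 16. Per kilobase of transcript, the scale on which genes can be compared, the mitochondrial electron carrier Etfb led in DMSO at 48 hours with 2237 normalized counts per kilobase, followed by Hadh with 1863, Acat1 with 1390 and Echs1 with 1282. Among peroxisomal genes the thiolase Acaa1a was highest, at 724.0 per kilobase. Ehhadh, the peroxisomal bifunctional enzyme known as a target of PPARα in liver, Acaa1b, the liver-enriched thiolase paralog, Cpt1b, the muscle form of CPT1, and Acox2 lay between 0.719 and 4.31 per kilobase. Hsd17b4, the other bifunctional enzyme of peroxisomes, stood at 519.6 per kilobase against 4.31 for Ehhadh. Counts of Etfb and Cpt1b are uncertain, since 43.5% and 68.5% of their exon bases are shared on the same strand in GENCODE vM39. Cpt1b shares them with Gm44502, itself a gene of the count table. How shared reads were counted is not known, so reads may have been added or lost.

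**Figure D1:**
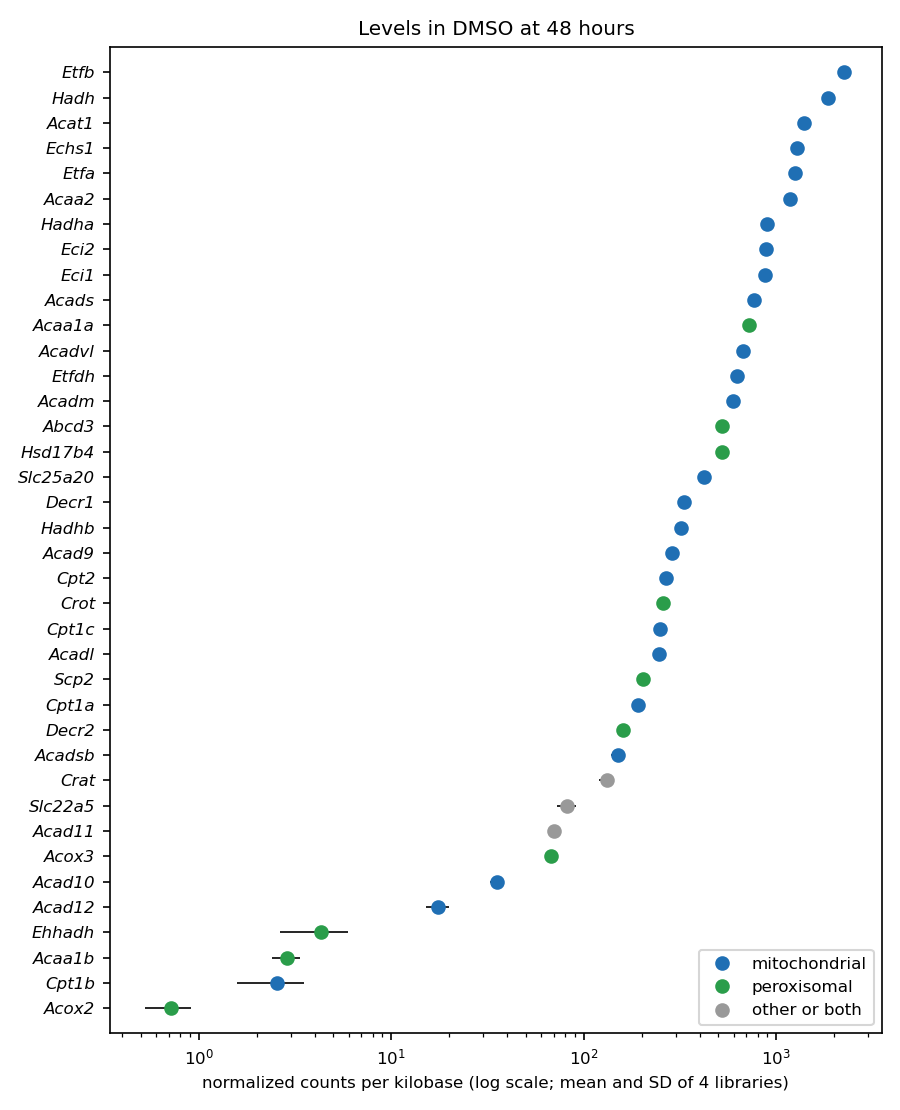
Normalized counts per kilobase of the canonical transcript in DMSO at 48 hours for the 38 genes, on a log axis, with mean and SD of 4 libraries, colored by compartment. Etfb is highest at 2237 per kilobase, and Ehhadh, Acaa1b, Cpt1b and Acox2 lie at 4.31 or below.

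At 48 hours of sorafenib 12 genes were higher than in DMSO, 12 were lower and 14 passed neither call (edgeR FDR under 0.05, adjusted over all 20444 genes). Of all genes tested, 54.6% were called, 26.9% higher and 27.7% lower, and among the β-oxidation genes 63.2% were. At 7 days 16 were higher, 10 lower and 12 not called, 68.4% in all, where 56.8% of all genes were called, 28.9% higher and 27.9% lower. Of the 33 averaging 100 normalized counts or more, 66.7% were called at 48 hours and 72.7% at 7 days, against 76.4% and 76.3% of all genes at that level. Scaling to total counts alone gave 8 higher and 15 lower at 48 hours, and 18 and 10 at 7 days.

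Of the 25 mitochondrial genes, 6 were higher and 12 lower at 48 hours, with a median log2 fold change of -0.20, and 8 were higher and 10 lower at 7 days, with a median of -0.02. Eci2 is among the higher ones at both times. Of the 10 peroxisomal genes, 4 were higher and 0 lower at 48 hours, with a median of 0.14, and 7 higher and 0 lower at 7 days, with a median of 0.27. Among these 10, Ehhadh and Acaa1b had at most 19 and 7 counts in any library, so that a fall could hardly be called. The median of all genes tested was -0.05 and 0.02. Of them, 26.9% were higher and 27.7% lower at 48 hours, and 28.9% and 27.9% at 7 days. Among genes averaging 100 normalized counts or more, the shares were 40.9% higher and 35.5% lower at 48 hours, and 35.8% and 40.6% at 7 days. Without replicate 2 of sorafenib at 48 hours the mitochondrial counts were 5 higher and 14 lower, then 10 and 11, and the peroxisomal counts were 5 and 0, then 7 and 1. With total-count scaling the peroxisomal counts stayed at 4 and 0, then 7 and 0, and the mitochondrial ones became 3 and 15, then 9 and 10. These are counts and medians of the genes listed, and no test of one compartment against the other was made.

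By chain length, the 8 genes for long chains (Cpt1a, Cpt2, Slc25a20, Acadvl, Acadl, Acad9, Hadha and Hadhb) held 1 higher and 5 lower at either time, with medians of -0.23 and -0.19. The 6 for medium and short chains (Acadm, Acads, Hadh, Echs1, Acaa2 and Acat1) also held 1 higher and 5 lower at either time, with medians of -0.31 and -0.53. The gene that went up was Acadl in the first class and Hadh in the second. They are dehydrogenases of different steps, and the dehydrogenases Acadm and Acads were lower at both times. The 8 peroxisomal genes for branched and very long chains had 3 higher at 48 hours and 5 at 7 days, with 0 lower. The shares of all genes given above stand beside these counts by chain length too. Over both times, 10 genes were higher at each, namely Abcd3, Acad11, Acadl, Acadsb, Acox2, Acox3, Crot, Decr1, Eci2 and Hadh, and 9 were lower at each, namely Acaa2, Acadm, Acads, Acat1, Cpt1a, Echs1, Hadha, Hadhb and Slc25a20. The share of all genes called alike at both times is not given, so whether these counts exceed it was not tested.

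**Figure D2:**
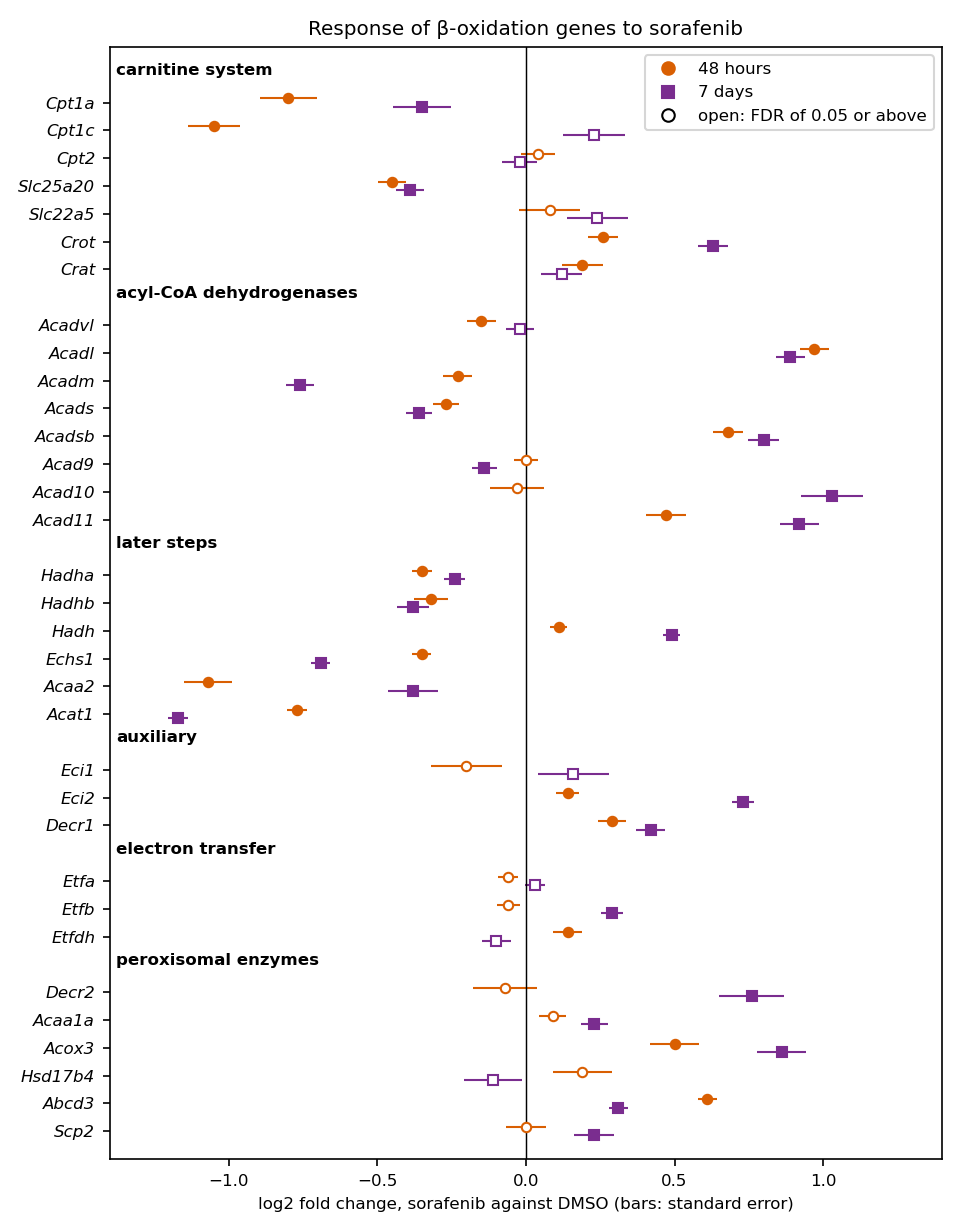
Log2 fold change of sorafenib against DMSO at 48 hours (circles) and 7 days (squares) for 33 genes by role, with the standard error as a bar and open symbols where the FDR was 0.05 or above. Acat1, Acaa2, Echs1, Hadha and Hadhb lie to the left at both times, and Acadl, Acadsb, Acad11, Hadh, Eci2 and Acox3 to the right. Acox2, with vehicle counts near 0, and the low-count genes Acad12, Cpt1b, Ehhadh and Acaa1b are left out.

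Transcripts were lower for 2 of the 3 steps of entry into mitochondria, and transport itself was not measured in these data. Cpt1a (chr19:3371853-3437996, GRCm39) encodes the liver form of CPT1, the step that malonyl-CoA inhibits. Its libraries held 1284, 1208, 1265 and 1301 normalized counts in DMSO at 48 hours and 806.8, 499.0, 813.8 and 764.3 with sorafenib. The groups did not overlap, and the lowest value was that of replicate 2, in whose lowered region the gene lies. The log2 fold change was -0.80 ± 0.096 (SE, edgeR FDR = 4.75e-07), and -0.67 without that library (FDR = 2.38e-17). At 7 days DMSO libraries held 913.6, 806.1, 871.0 and 793.9 and sorafenib libraries 695.1, 651.3, 680.5 and 631.5, again apart, for a log2 fold change of -0.35 ± 0.096 (FDR = 0.00428). Slc25a20, the carnitine-acylcarnitine carrier, fell by 0.45 at 48 hours and by 0.39 at 7 days on the log2 scale (edgeR FDR = 8.49e-08 and 6.89e-07). Cpt2 was at 0.04 ± 0.057 and -0.02 ± 0.059, with overlapping groups and no call.

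The CPT1 paralogs diverged. Cpt1c, whose product is known mainly from the endoplasmic reticulum of neurons and is counted here with its family among the mitochondrial genes, stood at 674.5, 707.9, 693.2 and 714.6 in DMSO at 48 hours and at 297.5, 405.3, 293.1 and 357.7 with sorafenib (log2 fold change -1.05 ± 0.089, edgeR FDR = 2.73e-09). By 7 days its vehicle level had itself dropped to 184.9, 165.3, 150.2 and 204.1, and the sorafenib libraries, at 222.7, 212.0, 192.4 and 197.7, overlapped it. The 7-day difference of 0.23 was not called (FDR = 0.0685), although it was without DMSO replicate 4 of that time (0.31, FDR = 0.02) and without sorafenib replicate 2 of 48 hours (0.23, FDR = 0.0183). Per kilobase, Cpt1a stood at 0.773 ± 0.0348 of Cpt1c in DMSO at 48 hours and at 2.08 ± 0.333 of it at 7 days. Left without Cpt1c, the mitochondrial genes had 6 higher and 11 lower at 48 hours and 8 and 10 at 7 days.

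Of the other carnitine genes, Crot, which makes carnitine esters of medium chains in peroxisomes, rose at both times. It moved from a mean of 790.5 ± 34.1 to 946.4 ± 53.6 at 48 hours and from 584.8 ± 20.2 to 906.1 ± 46.0 at 7 days (log2 0.26 and 0.63, edgeR FDR = 0.000149 and 1.24e-09), with groups apart at either time. Crat was called at 48 hours alone (0.19, FDR = 0.0238), where its groups overlapped and the call was lost on leaving out each of 4 libraries. Slc22a5 was at 0.08 and 0.24, just short of a call at 7 days (FDR = 0.0508), and was called there on leaving out each of 5 libraries, with 0.35 at most, without DMSO replicate 3 (FDR = 0.00587). Cpt1b had 2 to 10 counts per library and no call.

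The acyl-CoA dehydrogenases, 9 genes, moved in opposite directions, with 3 higher and 4 lower at 48 hours and 5 and 3 at 7 days. Acadl (chr1:66868267-66902633), the long-chain enzyme, stood at 647.1, 594.3, 615.6 and 589.3 in DMSO at 48 hours and at 1288, 1205, 1125 and 1189 with sorafenib. By 7 days it stood at 589.3, 609.1, 648.3 and 630.7 in DMSO and at 1079, 1164, 1164 and 1171 with sorafenib. Every treated library was above every vehicle library, and the change of the vehicle level with time was 0.02, not called (FDR = 0.781). The log2 fold changes were 0.97 ± 0.049 and 0.89 ± 0.049 (edgeR FDR = 1.01e-12 and 3.29e-12).

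Acadm (chr3:153627989-153650317), the medium-chain enzyme, went the other way. Its libraries held 1278, 1228, 1255 and 1133 in DMSO at 48 hours and 985.0, 1087, 1057 and 1039 with sorafenib. At 7 days DMSO gave 1220, 1182, 1262 and 1224 and sorafenib 691.8, 693.6, 778.4 and 715.2. The groups were apart at either time, and the fall deepened from -0.23 ± 0.048 to -0.76 ± 0.048 on the log2 scale, with a difference of -0.53 between the 2 times (edgeR FDR = 2.97e-06). Per kilobase, the ratio of Acadl to Acadm was 0.412 ± 0.0134 in DMSO at 48 hours and 0.418 ± 0.013 at 7 days, but 0.952 ± 0.0876 and 1.31 ± 0.0669 with sorafenib (n = 4 each). Acads, for short chains, fell by 0.27 and 0.36 (edgeR FDR = 2.36e-05 and 6.58e-07). Acadvl, for very long chains, was lower at 48 hours alone (-0.15, FDR = 0.0113), with overlapping groups, and 38.2% of its exon bases lie opposite exons of Dvl2, so that without a known strand setting its counts are uncertain. Acad9, an assembly factor of complex I as well as a dehydrogenase, was at 0.00 and -0.14, the latter called (FDR = 0.00537).

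Acadsb, which acts on short branched chains from isoleucine, rose from 922.7 ± 74.6 to 1480 ± 80.2 at 48 hours and from 766.9 ± 16.4 to 1340 ± 41.3 at 7 days (log2 0.68 and 0.80, edgeR FDR = 6e-10 and 4.95e-11), with no overlap. Acad11, known for 4-hydroxy acids and long chains, rose by 0.47 and 0.92 (FDR = 4.33e-06 and 1.81e-10). Acad10 and Acad12 are neighbors on chromosome 5. Acad10 (chr5:121759087-121799017) held 128.0, 118.0, 126.6 and 144.3 in DMSO and 123.5, 145.2, 115.2 and 127.2 with sorafenib at 48 hours, which overlapped. By 7 days the level was 54.1, 54.0, 56.1 and 51.9 in DMSO and 117.0, 109.6, 99.7 and 118.0 with sorafenib, which did not (log2 1.03 ± 0.10, FDR = 3.31e-08). Against vehicle at 48 hours, the treated level at 7 days lay at -0.22 (log2) and the vehicle level at 7 days at -1.26. What lies behind the 7-day difference was not tested. Acad12 (chr5:121734838-121757072), with 14 to 88 counts per library, was lower at 48 hours (-0.74 ± 0.23, FDR = 0.00897) and higher at 7 days (0.94 ± 0.27, FDR = 0.00562), where the groups overlapped. Its DMSO means were 68.1 ± 9.22 at 48 hours and 20.8 ± 8.41 at 7 days, and its sorafenib means 40.8 ± 12.2 and 38.4 ± 11.0.

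The proximal promoters of this pair and of Acadm are shown because they held the same short match. In windows of 250 bases before to 50 after each RefSeq start (GRCm38.p6, 31 of the 38 genes with a window), the core of the NRF1 element, GCATGCGC on either strand, was present for 5 genes (Acad10, Acad12, Acadm, Etfa and Etfdh), or 16.1%, and for 3.05% of the 27025 genes with a window. NRF1 is a factor of nuclear genes for mitochondria. Capitals mark bases of the match on either strand, and the stretches read 5′ to 3′ on the gene's strand.
Acad10 promoter, chr5:121660511-121660570: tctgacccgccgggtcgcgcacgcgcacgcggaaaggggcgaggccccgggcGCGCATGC
Acad12 promoter, chr5:121618939-121619008: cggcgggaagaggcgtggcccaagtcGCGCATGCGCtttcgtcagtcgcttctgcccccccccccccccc
Acadm promoter, chr3:153944764-153944823: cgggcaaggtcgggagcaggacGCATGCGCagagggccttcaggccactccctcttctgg
At 7 days Acad10 and Acad12 were higher, Acadm was lower, and Etfa and Etfdh were not called. The other 4 elements were searched, each on both strands. The E-box CACGTG was in 0 of the 31 windows (8.09% of all), the ERR element TCAAGGTCA in 0 (0.466%), and the direct repeat bound by PPARα with RXR, AGGTCA, any 1 base, AGGTCA, in 0 (0.0481%). The composite element of ATF4 and C/EBP, TGATGCAA, was in the window of Echs1 alone (3.23%, against 1.03% of all). A match is a description of letters in these windows. The exact direct repeat and ERR element are so rare over all genes that 0 in 31 windows cannot tell these genes from others.

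After the dehydrogenases, 5 of the 6 genes of the later steps fell at both times. Acat1 (chr9:53450461-53521731), the mitochondrial acetoacetyl-CoA thiolase, which also serves ketone bodies and isoleucine, had the highest normalized count in DMSO at 48 hours and the largest fall at 7 days among the 38. It stood at 5998, 5985, 5679 and 5798 in DMSO and 3373, 3538, 3297 and 3515 with sorafenib at 48 hours, then at 4354, 4413, 4365 and 4232 and at 1967, 1940, 1856 and 1937. No group overlapped another, and the log2 fold change went from -0.77 ± 0.033 to -1.17 ± 0.033 (edgeR FDR = 4.66e-14 and 8.25e-17), a difference of -0.40 (FDR = 7.87e-07).

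Echs1 (chr7:139684839-139696570), the short-chain hydratase, held 3024, 3044, 3014 and 2918 in DMSO at 48 hours and 2315, 2442, 2370 and 2277 with sorafenib. The 7-day libraries held 2564, 2529, 2615 and 2498 and then 1558, 1555, 1604 and 1623. The groups stood apart at either time (log2 -0.35 ± 0.032 and -0.69 ± 0.032, edgeR FDR = 8.54e-09 and 2.79e-13). Its promoter stretch with the ATF4 and C/EBP composite element in capitals is given since it was the one window of the 31 with that match.
Echs1 promoter, chr7:140116542-140116601: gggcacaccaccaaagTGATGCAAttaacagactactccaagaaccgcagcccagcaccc
Hadha and Hadhb, the subunits of the trifunctional protein, fell by 0.35 and 0.32 at 48 hours and by 0.24 and 0.38 at 7 days (edgeR FDR from 2.58e-08 to 7.68e-05). They are head to head on chromosome 5. Exons of Garem2 and Hadhb together lie opposite 31.0% of the exon bases of Hadha, and exons of Hadha opposite 5.9% of those of Hadhb. Without a known strand setting the counts of Hadha above all are uncertain.

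Hadh (chr3:131027068-131065750), the hydroxyacyl-CoA dehydrogenase for medium and short chains, was the exception. It held 3415, 3226, 3381 and 3310 in DMSO and 3558, 3658, 3579 and 3545 with sorafenib at 48 hours, then 2185, 2234, 2221 and 2222 and 3153, 3124, 3037 and 3121. The groups did not overlap, but the first step was small (0.11 ± 0.029, edgeR FDR = 0.00394) and was not called with total-count scaling or without DMSO replicate 4 (0.07, FDR = 0.0534), whereas the second was 0.49 ± 0.029 (FDR = 1.08e-11). Hadh thus parted from Echs1, the enzyme one step before it. Per kilobase their ratio was 1.45 ± 0.0456 in DMSO and 2.00 ± 0.0347 with sorafenib at 48 hours, and 1.14 ± 0.0272 and 2.57 ± 0.0836 at 7 days.

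Acaa2 (chr18:74911948-74953492), the thiolase for medium chains, held 2156, 2032, 1987 and 2069 in DMSO at 48 hours and 1092, 731.9, 1109 and 975.6 with sorafenib. At 7 days it held 1194, 1134, 1123 and 1036 in DMSO and 844.8, 856.8, 874.6 and 871.6 with sorafenib. The groups of either time were apart, with replicate 2 lowest at 48 hours. The log2 fold change was -1.07 ± 0.082, or -0.96 without replicate 2, and then -0.38 ± 0.083 (edgeR FDR = 6.68e-10, 1.81e-25 and 0.00058). The vehicle level at 7 days was itself 0.88 lower on the log2 scale (a change of -0.88).

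**Figure D3:**
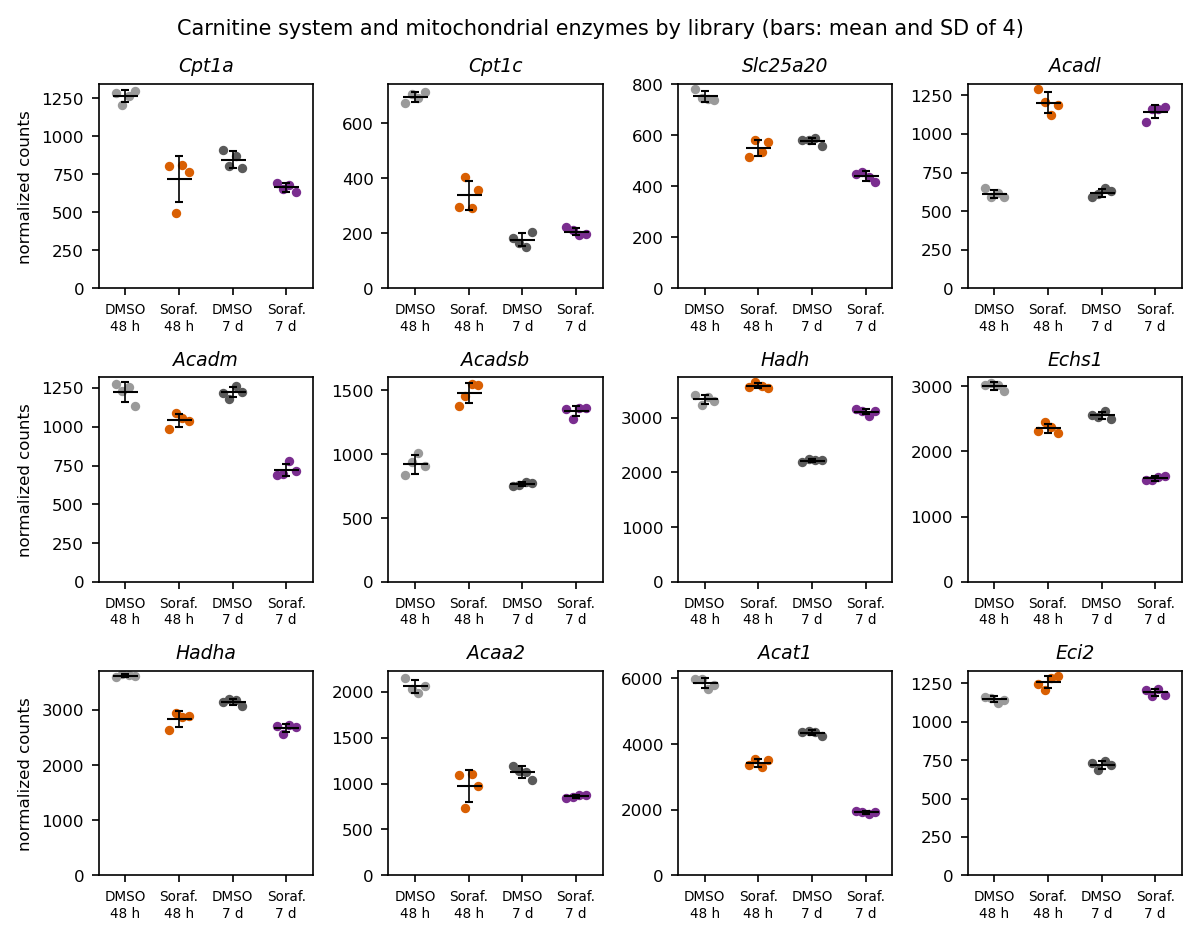
Normalized counts of 12 genes of the carnitine system and mitochondrial β-oxidation in each of the 16 libraries (points), with the mean and SD of 4 libraries per group, each axis from 0. Acadl is higher and Acat1 lower in both sorafenib groups, and the DMSO group at 7 days is the lowest for Hadh and Eci2.

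The auxiliary enzymes, which make unsaturated chains fit for the cycle, held 2 higher and 0 lower of 3 at both times. Eci2, an enoyl-CoA isomerase of mitochondria and peroxisomes, held 1164, 1158, 1122 and 1142 in DMSO and 1247, 1207, 1284 and 1299 with sorafenib at 48 hours. The 7-day values were 730.9, 685.3, 742.4 and 721.6 and then 1206, 1171, 1217 and 1174. The groups were apart at either time, with a small first step (0.14 ± 0.037, edgeR FDR = 0.00377), not called with total-count scaling or on leaving out each of 3 libraries, and a larger second one (0.73 ± 0.038, FDR = 1.37e-12). Decr1, the mitochondrial dienoyl-CoA reductase, rose by 0.29 and 0.42 (FDR = 2.39e-05 and 2.59e-07). Eci1 was not called in the fit of all libraries. Its sorafenib libraries at 48 hours held 985.0, 521.7, 1033 and 965.4, the low one being replicate 2, and without that library it was at -0.03 at 48 hours (FDR = 0.643) and was called higher at 7 days (0.16, FDR = 0.000315).

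Of the 3 electron carriers, 1 was higher and 0 lower at either time. Etfb rose at 7 days, from 1671 ± 23.4 to 2045 ± 31.8 (0.29, edgeR FDR = 1.67e-06), and its partner Etfa, which pairs with it in equal parts in the protein, was at 0.03 ± 0.035. Etfdh was called higher at 48 hours (0.14, FDR = 0.0238), with overlapping groups. That call was lost on leaving out each of 6 libraries, among them sorafenib replicate 2 (0.08, FDR = 0.056), without which Etfa and Etfb were called lower (-0.08 and -0.09, FDR = 0.031 and 0.0248).

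In peroxisomes the largest change belonged to Acox2 (chr14:14210395-14244262, GRCm39), the branched-chain oxidase that also shortens the side chain of bile acid precursors. It held 2.93, 1.74, 2.04 and 1.73 normalized counts in DMSO at 48 hours and 75.8, 54.4, 69.5 and 37.5 with sorafenib. At 7 days it held 2.16, 0.0, 3.45 and 0.927 in DMSO and 103.5, 104.8, 104.1 and 103.3 with sorafenib. The groups were far apart, and the gene was next to silent in vehicle, with 9 and 7 counts in all over the 4 DMSO libraries of each time. Against a floor of 3 counts per library, or 2.79 normalized counts, it was at least 21.2-fold higher at 48 hours and at least 37.2-fold higher at 7 days (edgeR FDR = 2.93e-10 and 2.06e-12). The floor covers counting error alone. The difference between the 2 times was not called (FDR = 0.283). Even so, its level of 35.4 per kilobase at 7 days was below the 96.0 of Acox3. RefSeq lists 2 starts for the gene, and the 120 bases before each are shown (GRCm38.p6, minus strand of that build), as this was the one gene of the set to go from near silence to expression. They held none of the 5 elements.
Acox2 promoter, chr14:8259020-8259139: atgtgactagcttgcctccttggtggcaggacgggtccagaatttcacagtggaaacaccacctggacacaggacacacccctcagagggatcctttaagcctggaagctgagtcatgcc
Acox2 promoter, chr14:8258840-8258959: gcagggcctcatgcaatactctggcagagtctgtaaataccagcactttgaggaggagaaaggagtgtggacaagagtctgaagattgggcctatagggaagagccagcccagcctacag

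Acox3, the other branched-chain oxidase of the list, held 252.2, 282.8, 279.7 and 269.6 in DMSO and 362.0, 456.7, 348.3 and 374.8 with sorafenib at 48 hours. At 7 days it held 198.9, 195.3, 213.2 and 239.3 and then 408.3, 379.3, 391.8 and 360.0. All treated libraries exceeded the vehicle libraries of their time (0.50 ± 0.082 and 0.86 ± 0.082, edgeR FDR = 2.93e-05 and 1.83e-08). Abcd3, the membrane transporter that brings branched-chain acids and bile acid precursors in, held 2003, 2014, 1958 and 1967 in DMSO and 2991, 3070, 3145 and 2921 with sorafenib at 48 hours. At 7 days it held 2169, 2158, 2170 and 2118 and then 2574, 2747, 2722 and 2651. It was higher in each treated library, and more so at 48 hours than at 7 days (0.61 ± 0.032 and 0.31 ± 0.032, difference -0.30, FDR = 2.51e-05).

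The hydratase and dehydrogenase step that follows gave no call in the fit of all libraries, and its main gene depended on 1 library. Hsd17b4, the D-bifunctional protein, held 1995, 2052, 1970 and 1854 in DMSO at 48 hours and 2357, 1547, 2623 and 2427 with sorafenib, where 1547 is replicate 2. With it the log2 fold change was 0.19 ± 0.098 (edgeR FDR = 0.109), and without it 0.33 (FDR = 2.25e-11). At 7 days the values were 2289, 2106, 2206 and 2132 in DMSO and 2069, 2053, 1984 and 1995 with sorafenib, which did not overlap. The log2 fold change of -0.11 was not called with all libraries (FDR = 0.366) and was called lower without replicate 2 of 48 hours (FDR = 0.0042). Ehhadh, with 2 to 19 counts per library, overlapped between groups at both times.

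Acaa1a, the thiolase of straight chains, was at 0.09 at 48 hours (edgeR FDR = 0.093) and rose by 0.23 at 7 days, from 996.4 ± 33.8 to 1170 ± 61.0 (FDR = 0.000209). Acaa1b, whose sequence is close enough to Acaa1a to share reads, had 0 to 7 counts and no call. Scp2, which carries the thiolase of branched chains, was at 0.00 and then 0.23 (FDR = 0.00661), with overlapping groups at 7 days. Decr2, the peroxisomal dienoyl-CoA reductase, held 246.5, 222.7, 231.3 and 228.2 in DMSO and 403.8, 380.9, 396.2 and 385.6 with sorafenib at 7 days, with no overlap (0.76 ± 0.11, FDR = 6.29e-06). At 48 hours it was at -0.07 with replicate 2 and 0.06 without it, neither called.

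**Figure D4:**
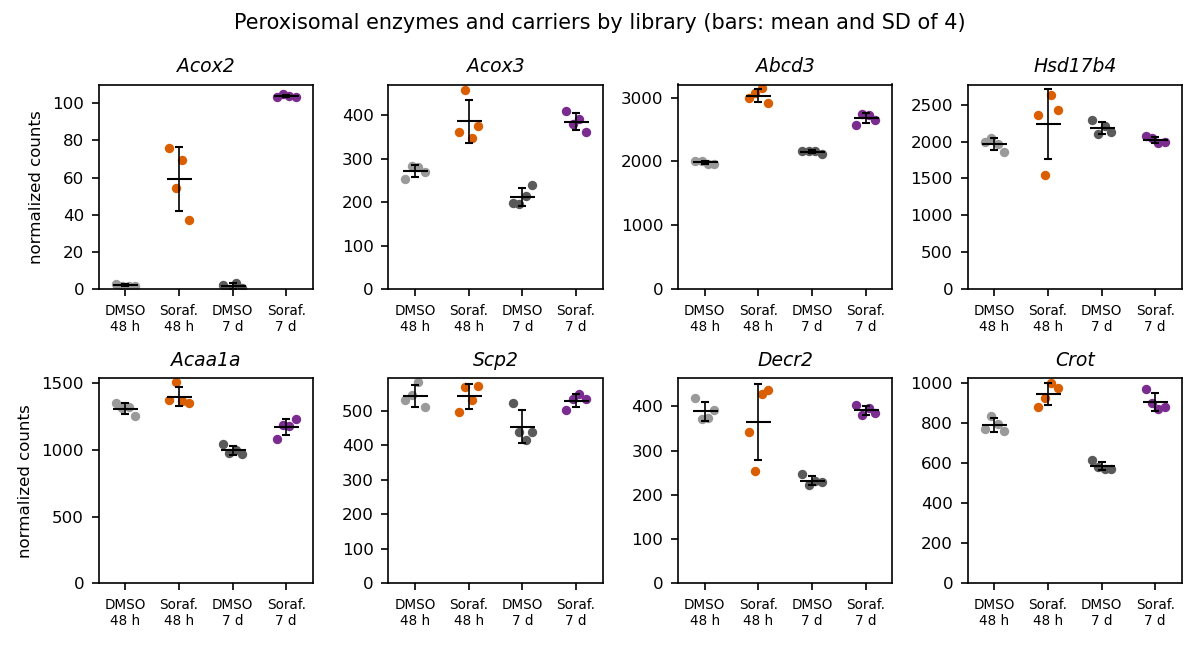
Normalized counts of 8 peroxisomal genes in each of the 16 libraries (points), with the mean and SD of 4 libraries per group, each axis from 0. Acox2 is near 0 in both DMSO groups and between 37.5 and 104.8 with sorafenib, and the low sorafenib library of Hsd17b4 and Decr2 at 48 hours is replicate 2.

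Vehicle cells changed with time in culture, and for these genes that change was one-sided. From 48 hours to 7 days in DMSO, 26 of the 38 were lower, 1 was higher and 11 were not called, a share of 68.4% lower where 25.5% of all genes tested were lower and 23.9% higher, 49.4% in all. Among genes averaging 100 normalized counts or more, the shares lower were 72.7% of 33 genes and 33.6% of 10646. The median log2 change was -0.34, against -0.01 for all genes tested. Mitochondrial genes had 0 higher and 18 lower with a median of -0.38, and peroxisomal genes 1 and 6 with a median of -0.35. The gene that was higher was Abcd3 (0.12, edgeR FDR = 0.00478), and without sorafenib replicate 2 of 48 hours Hsd17b4 was too (0.15, FDR = 0.000125).

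Among the genes called, the largest falls with time in DMSO were those of Cpt1c (-1.99 ± 0.093), Acad12 (-1.74 ± 0.25), Acad10 (-1.26 ± 0.10), Ehhadh (-0.97 ± 0.37), Acaa2 (-0.88 ± 0.080) and Decr2 (-0.75 ± 0.11), with edgeR FDR between 8.27e-13 and 0.0383. Ehhadh lost its call on leaving out each of 5 DMSO libraries, and Cpt1b, at -1.22 and not called (FDR = 0.052), gained one on leaving out each of 6 libraries. The counts on the 38 genes made up 0.191% of all counts in DMSO at 48 hours and 0.149% at 7 days, and 0.169% and 0.149% with sorafenib. For Hadh, Eci2, Decr1, Decr2 and Acad10, the treated level at 7 days lay between -0.22 and 0.06 (log2) of vehicle at 48 hours, as the map of group means shows, whereas their vehicle level lay between -1.26 and -0.45. For Acadl, Acad11, Acox3 and Abcd3 it lay between 0.43 and 0.90 above that vehicle level, and for Acat1, Acaa2 and Echs1 between -1.61 and -0.92 of it. These genes were picked after their values were seen. The 2 contrasts against DMSO use different vehicle libraries, and the vehicle at 7 days enters both its own contrast and the change with time, so these values share libraries.

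**Figure D5:**
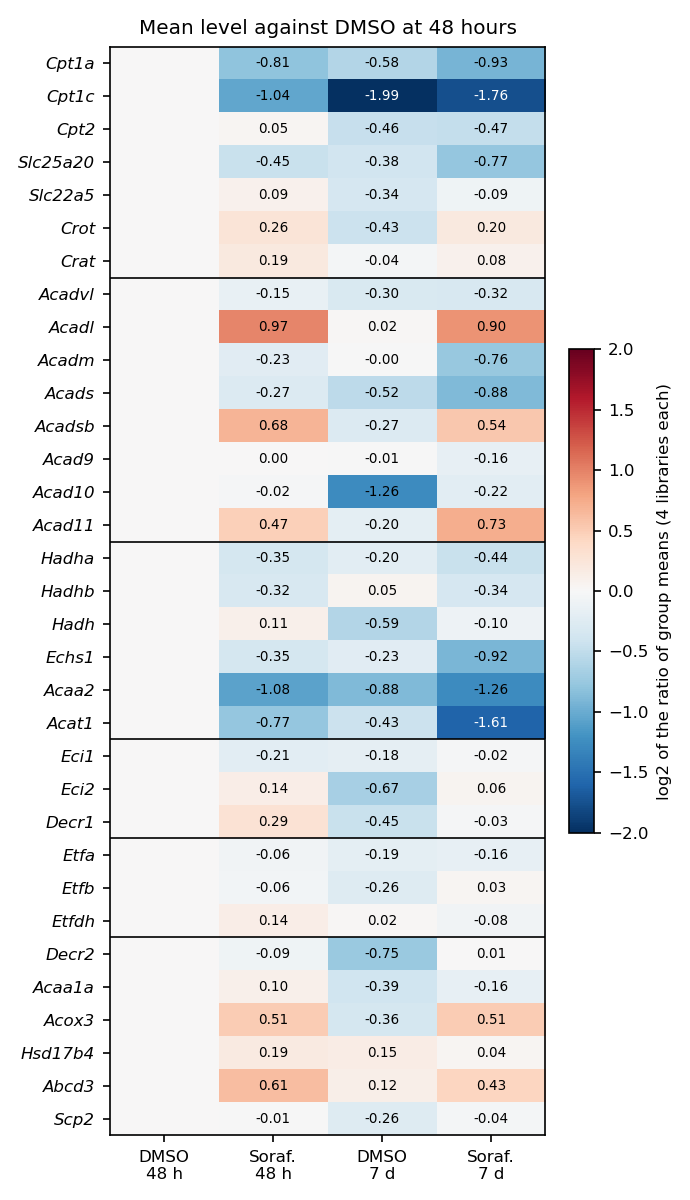
Log2 of the ratio of each group's mean to that of DMSO at 48 hours for 33 genes by role (lines part the roles), each mean over 4 libraries. The DMSO column at 7 days is blue for most genes, with -1.99 for Cpt1c, and the sorafenib columns hold red for Acadl, Acadsb, Acad11, Acox3 and Abcd3. Acox2 and the low-count genes Acad12, Cpt1b, Ehhadh and Acaa1b are left out.

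The response differed between the times for 17 genes, 12 with a higher and 5 with a lower log2 fold change at 7 days, where 36.8% of all genes tested were called and 44.7% of the 38. Among genes averaging 100 normalized counts or more it was 55.6% of all and 48.5% of the 33. Without replicate 2 of sorafenib at 48 hours the counts were 17 and 7, and with total-count scaling 20 and 4. Acad12 went from lower to higher against the vehicle of its time, with a difference of 1.68 ± 0.35 (edgeR FDR = 0.000726). Its mean was 40.8 and 38.4 with sorafenib at 48 hours and 7 days, and 68.1 and 20.8 in DMSO. The next were Cpt1c with 1.28, Acad10 with 1.06, Decr2 with 0.82, Acaa2 with 0.69, Eci2 with 0.59 and Cpt1a and Acad11 with 0.45. Each of them is also among the 26 that fell with time in DMSO. That overlap is in part built in, since both values use the same DMSO libraries and a fall in DMSO raises the difference. The 5 that were lower at 7 days than at 48 hours were Acadm (-0.53), Acat1 (-0.40), Echs1 (-0.33), Abcd3 (-0.30) and Etfdh (-0.24).

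Genes around the pathway, from lists written with earlier results of these data known, were also mixed, and the counts below include genes in the lowered region of replicate 2. For comparison, 26.9% of all genes tested were higher and 27.7% lower at 48 hours, and 28.9% and 27.9% at 7 days. Of 17 regulators tested, 6 were higher and 6 lower at 48 hours, and 6 and 8 at 7 days. Ppara, the receptor that drives the pathway in fasting liver, had 1 to 13 counts, lies in that region and gave no call, and Pparg, known for fat storage, rose by 1.42 and 0.91 (edgeR FDR = 5.95e-10 and 6.1e-08). Ppargc1a, the coactivator of mitochondrial genes, was lower at both times (-0.75 and -2.02, FDR = 0.00231 and 1.91e-08), as was Lpin1, its partner at PPARα and a phosphatidate phosphatase (-1.53 and -2.31, FDR = 2.19e-11 and 2.58e-13). Acaca and Acacb make malonyl-CoA, which inhibits CPT1, and stood at 4154 and 71.8 normalized counts in DMSO at 48 hours. Acaca was lower at both times (-0.16 and -0.70, edgeR FDR = 0.000395 and 4.13e-13). Acacb was lower at 48 hours (-0.51, FDR = 0.0128) and higher at 7 days (0.77, FDR = 0.000975). Mlycd, which removes malonyl-CoA, was higher at both (0.43 and 0.75). Of 7 PPARα targets tested of 10, 3 were higher and 3 lower at 48 hours and 3 and 2 at 7 days. Acot2, a mitochondrial thioesterase, rose by 2.76 and 2.75, while its cytosolic neighbor Acot1 was at -1.08 and -1.09, both called, and the pair is alike enough that reads may be split between them. Fgf21 rose by 4.27 and 1.31, and Cyp4a10, Cyp4a14 and Fabp1 had no counts.

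Of 14 related acyl-CoA enzymes, 6 were higher and 5 lower at 48 hours and 4 and 6 at 7 days. Among the lower ones was the cytosolic thiolase Acat2 (-1.64 and -1.92), a step of sterol synthesis that lies in the lowered region. Hibch and Hibadh of valine breakdown rose by 0.68 and 0.28 at 48 hours and by 0.58 and 0.38 at 7 days. Of 14 genes of peroxisomal lipid handling, 3 were higher and 2 lower at 48 hours and 7 and 3 at 7 days. Phyh, the first step of phytanic acid breakdown, rose from 90.1 ± 9.35 to 235.8 ± 16.5 and from 55.9 ± 5.97 to 241.4 ± 10.5 (1.38 and 2.11, edgeR FDR = 4.49e-11 and 1.08e-13). Catalase, Cat, which removes the peroxide that the oxidases make, rose by 0.19 and 0.98 (FDR = 4.89e-05 and 1.01e-15), but Hacl1, a lyase after Phyh, was lower (-0.83 and -0.37). The 16 genes of peroxisome assembly split 5 higher and 5 lower at both times, with Pex3 at 0.57 and Pex10 at -0.55 at 48 hours. Of 3 genes of carnitine synthesis, Aldh9a1 was lower (-0.73 and -0.70), Tmlhe was higher at 7 days (0.37, FDR = 0.0177), and Bbox1 had at most 3 counts.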

How the data were processed

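RNA of 16 libraries was made into libraries by the authors (Illumina Stranded mRNA Prep), read on a NovaSeq and aligned to GRCm39 with STAR 2.7.1a. Per the labels, the submitters' processing notes also name featureCounts 2.0.6 and DESeq2 1.40.2, and the strand setting and annotation are not given in the sources used here. The deposited values are counts of reads per gene, neither normalized nor pooled. Every value column had a sample.

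The 38 genes, the gene lists and the tests were chosen with earlier results of these data known. All 38 genes are accounted for, by role. Genes with fewer than 10 counts in total were removed (20396), and the rest went through the quasi-likelihood test of edgeR 4.0.16 (R 4.3.3) after TMM scaling, in 1 model of 4 groups with no block and Benjamini-Hochberg adjustment (FDR under 0.05). Means are given with the SD of 4 libraries. An exact permutation test of 4 against 4 cannot go below 0.0286. Lengths and positions are those of GENCODE vM39 on GRCm39, and 32251 names in the table matched exactly 1 of its genes. Promoters are from RefSeq on GRCm38.p6. Alternatives were DESeq2 1.42.0, limma 3.58.1 voom with quality weights, 2 other scalings, 2 other filters, a fold threshold, the libraries of a contrast alone, a replicate block, an offset for the library with lowered counts, and each library left out. Replicates differed by more than counting error (lowest chi-square per gene 1.49). Figures were drawn with matplotlib 3.10.9. Some genes of the lists are not reported here.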

Additional observations from a re-analysis of the deposited data

Results flagged for a closer look

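Of 140 groups of 4 libraries looked at for single genes, 9 had a library farther from its nearest neighbor than Dixon's 95% critical value allows, and chance gives about 1 in 20. In sorafenib at 48 hours these were Cpt1a with 499.0, Eci1 with 521.7 and Acaa1a with 1506 normalized counts in replicate 2, Decr1 with 1110 in replicate 1 and Slc22a5 with 228.3 in replicate 4. Cpt1a and Eci1 lie in the region of lowered counts of replicate 2, and Acaa1a does not. In sorafenib at 7 days they were Acadl with 1079 in replicate 1 and Acadsb with 1278 in replicate 2. In DMSO they were Acad9 with 1559 at 7 days in replicate 2 and Etfb with 2118 at 48 hours in replicate 1.

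The response to sorafenib differed between 7 days and 48 hours, by the contrast of both effects in edgeR, for 17 genes. The 7-day minus 48-hour log2 fold change was 1.68 for Acad12, 1.28 for Cpt1c, 1.06 for Acad10, 0.82 for Decr2, 0.69 for Acaa2, 0.59 for Eci2, 0.45 for Cpt1a and for Acad11, 0.38 for Hadh, 0.37 for Crot, 0.36 for Acox3 and 0.35 for Etfb. It was -0.53 for Acadm, -0.40 for Acat1, -0.33 for Echs1, -0.30 for Abcd3 and -0.24 for Etfdh.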

How the results depend on the processing

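No gene changed direction among those called under any alternative. A threshold of 0.5 on the absolute log2 fold change left 9 genes at 48 hours (4 higher, 5 lower), 13 at 7 days (10 and 3), 7 with a differing response and 10 with a change over time in DMSO. The offset for the lowered counts of 1 library raised the differing responses from 17 to 26 (20 higher, 6 lower). Leaving out each library in turn gave 22 to 26 genes at 48 hours, 26 to 31 at 7 days, 17 to 24 with a differing response and 26 to 30 over time in DMSO. At 48 hours, requiring 10 counts in every sample gave 9 higher and 14 lower of 34 genes, and total-count scaling 8 and 15, without calls for Hadh, Eci2, Etfdh and Crat. Of the calls of single genes for sorafenib at 48 hours and 7 days, with each library left out in turn, 1182 stayed on their side of the threshold, 20 were gained and 14 lost.

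With the replicate block the counts were 24 at 48 hours, 27 at 7 days, 17 for the differing response and 26 over time in DMSO. The deviations of same-numbered libraries correlated on average at -0.009 for 48 hours and at 0.067 for 7 days. Those of differently numbered libraries correlated at 0.003 and -0.022. These few pairs, which at 48 hours include the library with lowered counts, cannot decide whether the numbers pair the samples. The other alternatives kept each of these 4 counts within a factor of 1.5. At 3 counts per library, Cpt1b, Acaa1b and Ehhadh lay near the floor, where the depth could not show modest changes.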
